A study of Mus musculus with 5 samples.

Results

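Profilins, formins and Ena/VASP proteins were followed through podocyte RNA of control mice and of mice with a podocyte-specific deletion of *Pfn1*. The set holds 10 genes, chosen by name: the profilins *Pfn1* and *Pfn2*, the formins *Diaph1*, *Diaph2*, *Diaph3*, *Daam1* and *Fmnl2*, and the Ena/VASP genes *Enah*, *Vasp* and *Evl*. All 10 were found among the 21019 genes that carry values. Podocytes are the epithelial cells that wrap the glomerular capillaries of the kidney with actin-based foot processes. In translating ribosome affinity purification (TRAP), a Cre active in podocytes (Pod-Cre) switches on a GFP-tagged L10a ribosomal protein, and antibodies to GFP then pull down ribosomes with the mRNA they carry from a lysate of kidney cortex. There were 2 control libraries from *Pfn1* +/+ Pod-Cre Rosa-Dtr fl mice and 3 libraries labelled *Pfn1*-KO from *Pfn1* fl/fl mice with the same Pod-Cre and Rosa-Dtr fl alleles. Both groups carried this Cre, the floxed diphtheria toxin receptor allele and the TRAP allele and were 3 weeks of age, and each library held pooled RNA of 3 mice. The labels give the material as glomerular podocytes of the kidney and name a column kit and poly(A) selection. Libraries are named by the number in the table's header: control N1 and N3, and *Pfn1*-KO N2, N3 and N4. These numbers could be tied to a group, not to a replicate number in the labels.

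Profilins bind monomeric actin and speed the exchange of its nucleotide, and through a separate face they bind runs of proline. Formins and Ena/VASP proteins carry such runs and use profilin-bound actin: formins nucleate filaments and stay on the growing barbed end, and Ena/VASP proteins lengthen filaments at leading edges, filopodia and cell-matrix contacts. Ena/VASP proteins are brought to their sites by partners that bind their EVH1 domain. In podocytes the actin cytoskeleton holds the shape of the foot processes.

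The proline runs that join the families are shown first, because they are what makes the formins and Ena/VASP proteins partners of the profilins. The chosen transcript of each gene (GENCODE vM21, GRCm38) was searched for runs of at least 5 consecutive proline codons. The 8 formin and Ena/VASP genes all held one, and the 2 profilins held none. Of 21747 protein-coding genes, 620 (2.85%) held one. As the genes were picked as proline-rich partners, the difference is a description of the choice. The longest run was 8 codons in *Diaph1*, 12 in *Diaph2*, 13 in *Diaph3*, 6 in *Daam1* and 18 in *Fmnl2*, and 17 in *Enah*, 5 in *Vasp* and 8 in *Evl*. *Diaph1* held the most separate runs, 11, against 2 to 5 in each of the other 7. The sequences below run 5′ to 3′ on the coding strand, with the proline codons of the longest run in capitals and 9 bases on either side in lower case. They stand for 1 formin and 1 Ena/VASP gene that passed the test of the group difference described below (*Diaph2* and *Evl*) and for 1 of each family that did not (*Daam1* and *Enah*).
Diaph2, chrX:129971333-129971386, plus strand: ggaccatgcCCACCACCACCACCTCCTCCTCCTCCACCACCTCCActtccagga
Daam1, chr12:71951911-71951946, plus strand: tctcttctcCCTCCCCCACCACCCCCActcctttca
Evl, chr12:108675450-108675491, plus strand: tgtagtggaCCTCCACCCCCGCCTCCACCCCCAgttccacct
Enah, chr1:181921890-181921958, minus strand: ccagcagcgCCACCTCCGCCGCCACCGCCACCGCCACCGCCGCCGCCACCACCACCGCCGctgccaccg

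The loxP sites of the mutant allele flank coding exon 1 of *Pfn1*. *Pfn1* lies on the minus strand of chromosome 11, from 70651850 to 70654644, and has 3 exons. Exon 1 runs from 70654349 to 70654644 and is 296 bases long, which is 34.4% of the 861-base transcript and 12.3% of the 2405 bases of exon that GENCODE gives the gene over all its transcripts. Its coding part, with the start codon in capitals, holds the first 132 coding bases, or 44 codons.
Pfn1, chr11:70654349-70654480, minus strand: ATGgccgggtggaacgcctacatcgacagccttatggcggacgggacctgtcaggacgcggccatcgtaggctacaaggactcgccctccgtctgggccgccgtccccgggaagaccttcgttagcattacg
A value per gene sums over all exons and does not separate exon 1 from the rest. *Pfn1* and *Pfn2* each have a coding sequence of 420 bases, of which 259 (61.7%) are identical position by position, as are 62.9% of the 140 residues. Their longest shared run is 12 bases, and no stretch of 50 bases of either gene occurs in a transcript of another gene, so reads of that length tell the paralogs apart. *Diaph1*, *Daam1*, *Fmnl2* and *Vasp* shared no such stretch either, while the share was 0.308% in *Diaph2*, 0.940% in *Enah* and 3.64% in *Diaph3*. *Evl* shared 7.52%, all of it with *Degs2*, a gene on the opposite strand whose exons overlap those of *Evl* by 278 bases. *Degs2* had 0.922, 0.700 and 0.724 FPKM in *Pfn1*-KO N2, N3 and N4, and both controls listed it at 0. Whether reads were counted by strand is not given in the sources used here.

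The libraries stood apart before any single gene was considered. Values are FPKM, in which the fragments of a gene are divided by its length in kilobases and by the size of the library. Library sizes recovered from the table ran from 18186900 to 24871893 reads. An FPKM above 0 was listed for 6901 and 7528 genes in the controls and for 20435 to 20980 in the libraries labelled *Pfn1*-KO. Genes used by every cell were among those at 0, such as *Rac1* in control N3, so a gene at 0 is described below only as listed at 0. One rRNA gene, singled out after its values were seen, took 52.0% and 58.9% of the FPKM sum in the controls, 24.5% in *Pfn1*-KO N3, and 0.126% and 0.0850% in *Pfn1*-KO N2 and N4. The filter on low values, 1 FPKM or more in 2 libraries or more, kept 14631 genes. Limma called 70.1% of them higher and 2.13% of them lower in the group labelled *Pfn1*-KO (Benjamini-Hochberg adjusted p under 0.05 on log2(FPKM + 1)), and the median log2 fold change was 1.75. In 80.1% of them every library labelled *Pfn1*-KO exceeded both controls. A gene that differed between the groups was thus the usual case, and the values below are read against these shares.

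*Pfn1*, the deleted gene, was not lower in the libraries labelled *Pfn1*-KO as deposited, while its log2 fold change was -0.70 after median-ratio scaling and -0.36 after quantile normalization, neither called by limma. It was at 13.6 and 11.8 FPKM in control N1 and N3 (777 and 645 reads) and at 41.9, 17.2 and 27.8 FPKM in *Pfn1*-KO N2, N3 and N4 (2328, 1026 and 1216 reads). Each library labelled *Pfn1*-KO exceeded both controls, and these 3 differed among themselves by more than the controls did. The log2 fold change was 1.05 (SE 0.56, n = 2 and 3, adjusted p = 0.123 from limma), below the median of all genes and at percentile 23.2 of the genes tested. The value does not check the label, because exon 1 and the exons outside the deletion are summed in it. In its *Pfn1*-KO mice the paper reports the loss of *Pfn1* by real-time PCR and Western blotting. Both used primary podocytes isolated from pups, not TRAP RNA. The forward primer of that PCR lies in the coding part of exon 1 printed above, so the PCR reads RNA that holds exon 1. It also reports the loss of profilin1 from podocytes by immunofluorescence of kidney sections. Markers of other kidney cells are given below, and the part of those cells in this value was not tested. In bulk RNA, fewer cells of a type and less RNA per cell cannot be told apart.

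*Pfn2*, the profilin best known from neurons, had 7.65 and 13.5 FPKM in control N1 and N3, against 20.6, 11.3 and 12.8 FPKM in *Pfn1*-KO N2, N3 and N4. The groups overlapped: *Pfn1*-KO N3 and N4 lay between the controls, and only *Pfn1*-KO N2 lay above both. Its log2 fold change of 0.46 (SE 0.51, adjusted p = 0.429 from limma) did not pass the test. The share of *Pfn2* in the summed FPKM of both profilins does not depend on how libraries are scaled to one another. It was 35.9% and 53.5% in the controls and 33.0%, 39.8% and 31.5% in *Pfn1*-KO N2, N3 and N4, a mean of 44.7% ± 12.4 (SD, n = 2) against 34.8% ± 4.38 (SD, n = 3). The difference of -9.94 percentage points was smaller than the spread between the controls (two-sided exact permutation test, p = 0.4, where 0.1 is the smallest p that 2 against 3 libraries allow). It rested on the choice of control, being -18.7 points without control N1 and -1.18 points without control N3. *Pfn1* was thus the more abundant profilin in 4 of the 5 libraries, with control N3 the exception.

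**Figure D1:**
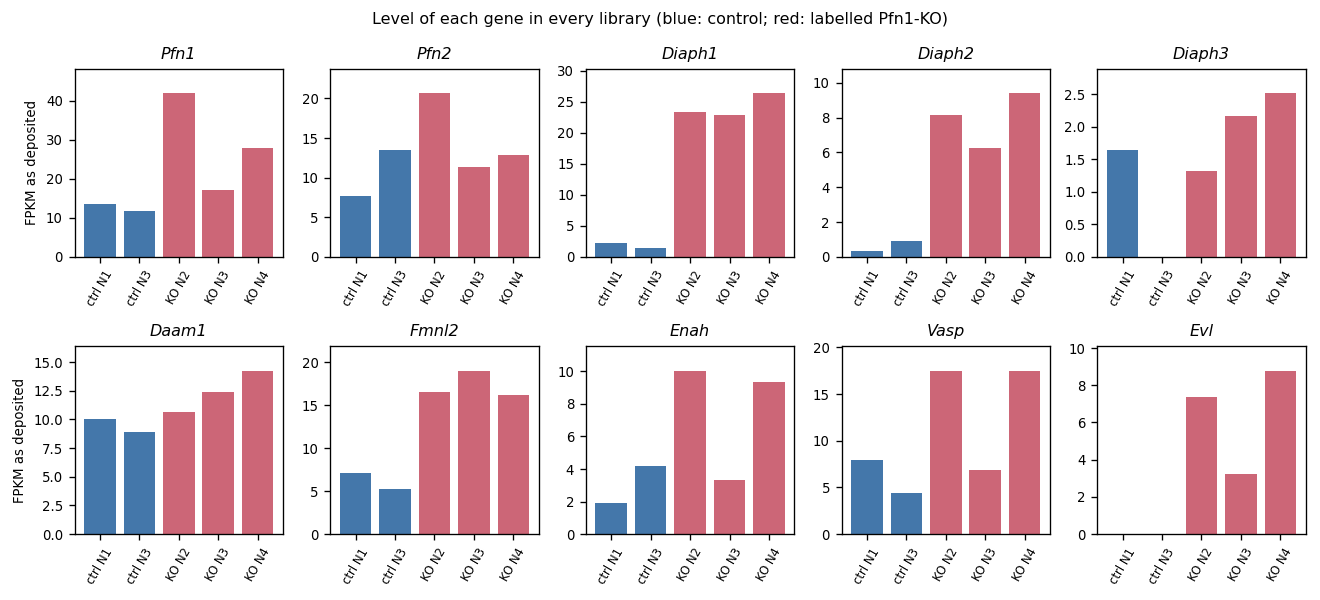
Level of each of the 10 genes (vertical axis, FPKM as deposited, from 0, with its own scale in each panel) in the 2 control libraries (blue) and the 3 libraries labelled *Pfn1*-KO (red). Each bar is 1 library of 3 pooled mice. *Pfn1* stands at 13.6 and 11.8 in the controls and between 17.2 and 41.9 in the others, *Diaph1* at 2.19 and 1.45 and between 22.9 and 26.4, and *Daam1* lies between 8.90 and 14.3 in all 5 libraries.

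The 5 formins divided into 3 that were called higher in the libraries labelled *Pfn1*-KO as deposited (*Diaph1*, *Diaph2* and *Fmnl2*, the last of them at -0.32 and -0.46 after median-ratio scaling and quantile normalization) and 2 that did not pass the test (*Diaph3* and *Daam1*). The median log2 fold change of the 5 was 1.35, against 1.75 for all genes tested. *Diaph1*, which encodes mDia1, a formin of the diaphanous class, had 2.19 and 1.45 FPKM in control N1 and N3 (329 and 210 reads), against 23.4, 22.9 and 26.4 FPKM in *Pfn1*-KO N2, N3 and N4 (3420, 3614 and 3042 reads). The 3 libraries labelled *Pfn1*-KO were close together and the ratio of the group means was 13.3. The log2 fold change of 3.17 (SE 0.42, adjusted p = 0.00171 from limma) was the largest of the 10 genes on this scale and lay at percentile 85.9 of all genes tested.

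*Diaph2*, a second diaphanous formin, lies on the plus strand of chromosome X from 129749742 to 130465834. The controls had 0.321 and 0.925 FPKM of it (88 and 244 reads), against 8.18, 6.28 and 9.39 FPKM in *Pfn1*-KO N2, N3 and N4 (2183, 1805 and 1974 reads). The groups did not overlap, and the log2 fold change was 2.47 (SE 0.39, adjusted p = 0.00265 from limma, percentile 71.7). Because 1 is added to each value before the logarithm, the ratio of the means, 12.8, was larger than this log2 value gives. *Diaph3*, which encodes mDia2, a formin of the contractile ring in dividing cells, was the lowest of the 5 formins in every library labelled *Pfn1*-KO. It stood at 1.64 FPKM in control N1 (217 reads), was listed at 0 in control N3, and stood at 1.33, 2.17 and 2.52 FPKM in *Pfn1*-KO N2, N3 and N4. Control N1 lay above *Pfn1*-KO N2, and the log2 fold change of 0.86 (SE 0.49, adjusted p = 0.141 from limma) did not pass the test. Without control N1 it did (1.57, adjusted p = 0.0333), the remaining control being the one listed at 0.

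*Daam1*, a formin that links Wnt signalling to actin, had the smallest fitted difference of the 10 genes as deposited. It had 10.1 and 8.90 FPKM in control N1 and N3 (1932 and 1644 reads), against 10.7, 12.4 and 14.3 FPKM in *Pfn1*-KO N2, N3 and N4. Each library labelled *Pfn1*-KO exceeded both controls, but by little: the log2 fold change was 0.35 (SE 0.43, adjusted p = 0.471 from limma), at percentile 10.3 of all genes tested. *Fmnl2*, a formin of lamellipodia and filopodia that binds the GTPase Cdc42, had 7.10 and 5.27 FPKM in control N1 and N3, against 16.5, 19.0 and 16.2 FPKM in *Pfn1*-KO N2, N3 and N4. Its groups did not overlap, the ratio of the means was 2.79 and the log2 fold change was 1.35 (SE 0.43, adjusted p = 0.0296 from limma, percentile 35.7). The call of *Fmnl2* was lost without control N3 (1.17, adjusted p = 0.0773), without *Pfn1*-KO N2 (1.38, adjusted p = 0.102) and without *Pfn1*-KO N4 (1.39, adjusted p = 0.0944).

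Among the Ena/VASP genes only *Evl* was called. *Enah*, which encodes Mena, had 1.92 and 4.16 FPKM in control N1 and N3, against 10.05, 3.35 and 9.33 FPKM in *Pfn1*-KO N2, N3 and N4. *Vasp*, a substrate of cyclic nucleotide-dependent kinases first studied in platelets, had 7.93 and 4.42 FPKM in control N1 and N3, against 17.5, 6.85 and 17.4 FPKM in *Pfn1*-KO N2, N3 and N4. In both genes *Pfn1*-KO N3 lay between the controls while *Pfn1*-KO N2 and N4 lay above them. The log2 fold change was 1.03 for *Enah* (SE 0.57, adjusted p = 0.134) and 0.997 for *Vasp* (SE 0.57, adjusted p = 0.149, both from limma), and neither passed the test. Without *Pfn1*-KO N3, limma called *Pfn1* (1.36, adjusted p = 0.0463), *Enah* (1.46, adjusted p = 0.0402) and *Vasp* (1.41, adjusted p = 0.0432). That library was the one of its group with the large share of the rRNA gene, whose part in these results was not tested.

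*Evl*, the third Ena/VASP gene, was listed at 0 in both controls, where 3 reads would be 0.0431 and 0.0447 FPKM. It was at 7.38, 3.25 and 8.79 FPKM in *Pfn1*-KO N2, N3 and N4 (501, 238 and 470 reads). No fold is given against a group listed at 0. The fitted log2 difference of 2.82 (SE 0.45, adjusted p = 0.00277 from limma) depends on the pseudocount of 1 and is no bound. Of 15046 protein-coding genes, 6417 were at 0 in both controls and 6255 of these were above 0 in every library labelled *Pfn1*-KO, so *Evl* shared its pattern with many genes. *Enah* and *Vasp*, of the same family, were read in both controls.

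The 10 genes were then read against all genes tested. All 10 passed the filter on low values, 4 (*Diaph1*, *Diaph2*, *Fmnl2* and *Evl*) were called higher, against 70.1% of all genes tested, and none was called lower, against 2.13%. At an unadjusted p under 0.05 the lower count was also 0, a threshold at which the share of all genes was not taken. *Diaph2* and *Evl* lay below 1 FPKM in both controls and so passed the filter only through the libraries labelled *Pfn1*-KO, where they were high. Among genes above 0 in every library, which leaves out *Diaph3* and *Evl*, 3 of 8 were called higher, against 51.2% of all such genes. For 6 of the 10 (*Pfn1*, *Diaph1*, *Diaph2*, *Daam1*, *Fmnl2* and *Evl*) every library labelled *Pfn1*-KO exceeded both controls, against 80.1% of all genes tested. The fitted log2 fold change was positive for each of the 10 as deposited, with a median of 1.04, and 7 of the 10 lay below the median of all genes, 1.75. Relative to that median the differences ran from -1.39 in *Daam1* and -1.28 in *Pfn2* over -0.70 in *Pfn1* to 0.73 in *Diaph2* and 1.42 in *Diaph1*. With sample weights in limma, 7 of the 10 were called higher (all but *Pfn2*, *Diaph3* and *Daam1*), against 83.1% of all genes tested.

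**Figure D2:**
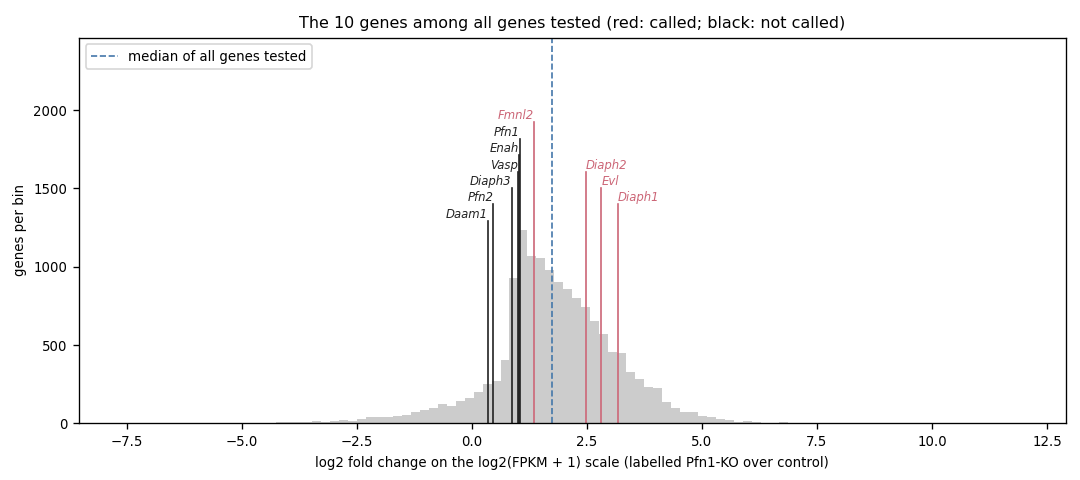
Log2 fold change on the log2(FPKM + 1) scale (horizontal axis, libraries labelled *Pfn1*-KO over controls, as deposited) of the 14631 genes tested (grey, genes per bin on the vertical axis), with each of the 10 genes as a vertical line, red where called by limma and black where not. The heights of the lines only separate the names. Of the 10 lines, 7 lie left of the dashed median of all genes at 1.75, and *Diaph2* (2.47), *Evl* (2.82) and *Diaph1* (3.17) lie right of it.

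As most genes were higher in the libraries labelled *Pfn1*-KO, 3 other scalings between libraries were set beside the deposited one. Rescaling each library to the same sum over nuclear protein-coding genes left a median log2 fold change of all genes of 1.34, with 54.8% called higher and 4.24% called lower by limma. *Diaph1* (2.32, adjusted p = 0.00696), *Diaph2* (1.88, adjusted p = 0.00908) and *Evl* (2.53, adjusted p = 0.00461) were still called higher. *Pfn1* was then at 0.02 (adjusted p = 0.978), with 18.4 and 13.7 FPKM per 100000 of that sum in the controls and 22.0, 11.6 and 16.4 in *Pfn1*-KO N2, N3 and N4. *Vasp* (0.02), *Enah* (0.16), *Diaph3* (0.37) and *Fmnl2* (0.37, adjusted p = 0.486) lay closer to 0 than as deposited, and *Pfn2* (-0.54, adjusted p = 0.324) and *Daam1* (-0.64, adjusted p = 0.231) turned negative, none of them called. *Daam1* was then at 13.6 and 10.4 in the controls and at 5.60, 8.37 and 8.39 in *Pfn1*-KO N2, N3 and N4 on the same scale, with no overlap in the direction opposite to the deposited values.

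Division by median-ratio size factors left a median of 1.01, with 46.9% of genes called higher and 6.19% lower by limma. *Diaph1* (1.68, adjusted p = 0.0184), *Diaph2* (1.33, adjusted p = 0.0424) and *Evl* (2.20, adjusted p = 0.00532) were called higher and *Daam1* was called lower (-1.33, adjusted p = 0.0448). *Pfn1* (-0.70), *Pfn2* (-1.24), *Fmnl2* (-0.32), *Enah* (-0.48) and *Vasp* (-0.66) were negative and not called. Quantile normalization, which gives every library the same distribution, brought the median to -0.09, with 6.99% of genes called higher and 12.3% lower, and none of the 10 was called by limma. At an unadjusted p under 0.05 there were 4 of the 10, *Diaph1* and *Evl* higher and *Pfn2* and *Daam1* lower. The share of all genes at that threshold was not taken, so this count cannot be read against a background. After quantile normalization *Diaph1* was at 1.22 (adjusted p = 0.0707), *Evl* at 0.84 (adjusted p = 0.127) and *Diaph2* at 0.03 (adjusted p = 0.956, all from limma). Of all calls, 97.0% were higher as deposited and 36.2% after quantile normalization. Each of the 10 genes kept its side of the median of all genes under these 4 scalings. *Diaph1*, *Diaph2* and *Evl* lay above it and the others below. *Diaph2* and *Evl* had passed the filter only through the libraries labelled *Pfn1*-KO, so their calls and side are no support for a difference. In limma-voom on the recovered reads, where the median of all genes was 4.80, *Diaph1* (2.72) and *Diaph2* (2.85) lay below it and *Evl* (8.67) above.

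**Figure D3:**
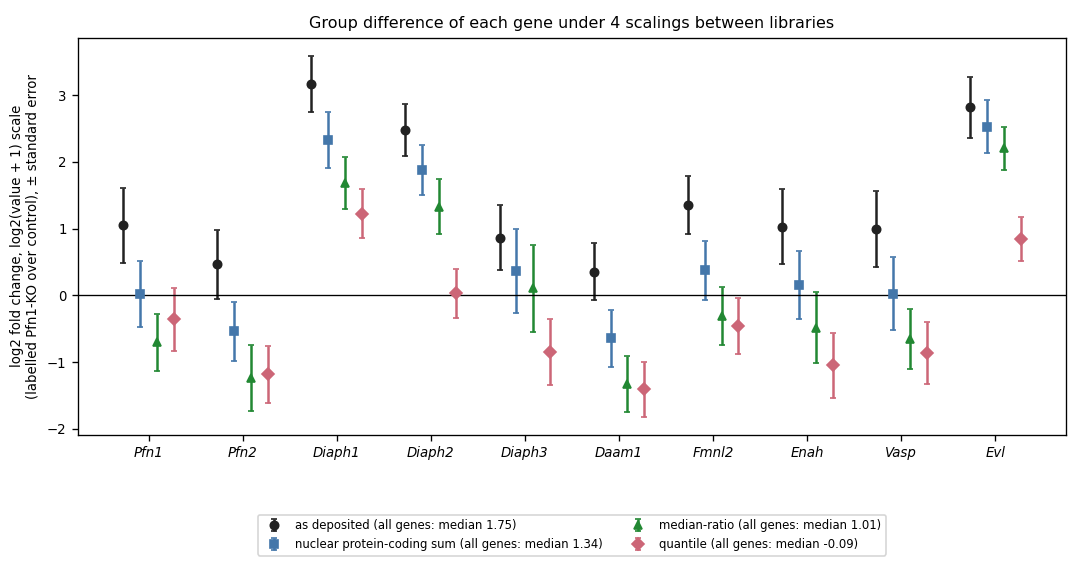
Log2 fold change on the log2(value + 1) scale (vertical axis, libraries labelled *Pfn1*-KO over controls) of each of the 10 genes under 4 scalings between libraries, with bars of 1 standard error from limma. *Diaph1* and *Evl* lie above 0 under all 4 scalings, *Diaph2* reaches 0.03 after quantile normalization, and *Pfn1*, *Pfn2*, *Daam1*, *Fmnl2*, *Enah* and *Vasp* turn negative under median-ratio scaling and quantile normalization, as does *Diaph3* under the latter.

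Comparisons within a library need no scaling between libraries. The formins held 40.7% and 32.8% of the summed FPKM of the 10 genes in the controls and 38.1%, 59.97% and 47.4% in *Pfn1*-KO N2, N3 and N4, a mean of 36.7% ± 5.53 (SD, n = 2) against 48.5% ± 10.96 (SD, n = 3). The groups overlapped, and the difference of 11.8 points did not pass the two-sided exact permutation test (p = 0.4). Without *Pfn1*-KO N3 it was 6.03 points. The Ena/VASP genes held 18.8% and 17.0% in the controls and 22.2%, 12.8% and 24.5% in *Pfn1*-KO N2, N3 and N4, a difference of 1.95 points that was smaller than the spread among the latter (two-sided exact permutation test, p = 0.8). The remainder fell to the profilins, 40.6% and 50.1% in the controls and 39.7%, 27.2% and 28.0% in *Pfn1*-KO N2, N3 and N4.

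The make-up of the formin family differed between the groups in a pattern singled out after its values were seen and given with no test. *Daam1* held 47.2% and 53.8% of the summed FPKM of the 5 formins in the controls and 17.7%, 19.8% and 20.8% in *Pfn1*-KO N2, N3 and N4. *Diaph1* held 10.3% and 8.77% in the controls and 38.9%, 36.5% and 38.4% in *Pfn1*-KO N2, N3 and N4. *Daam1* was thus the most abundant of the 5 formins in both controls and *Diaph1* in all 3 libraries labelled *Pfn1*-KO, with narrow ranges inside each group. The ratio of *Diaph1* to *Daam1* was 0.217 and 0.163 in the controls and 2.19, 1.85 and 1.85 in *Pfn1*-KO N2, N3 and N4. Set against *Pfn1*, *Diaph1* was at a ratio of 0.161 and 0.124 in the controls and 0.557, 1.34 and 0.949 in the libraries labelled *Pfn1*-KO. Within the Ena/VASP family *Vasp* held 80.5% and 51.5% in the controls and 50.1%, 50.9% and 49.0% in *Pfn1*-KO N2, N3 and N4, so that control N1 alone stood apart. That library also held the high values of the macrophage gene *Lyz2* given below, whose part in this share was not tested.

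**Figure D4:**
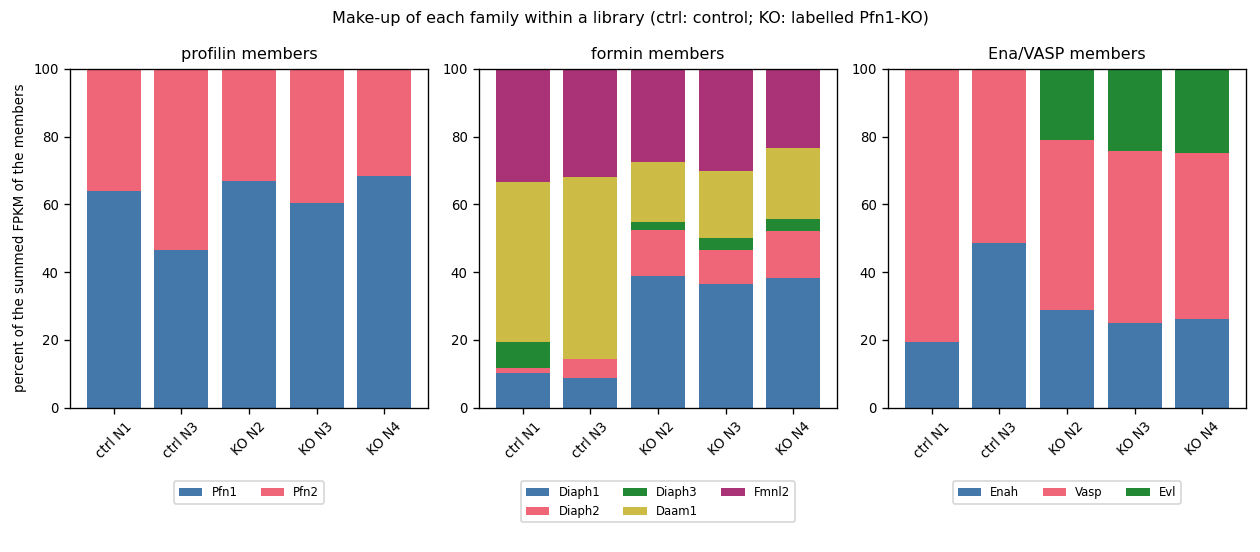
Percent of the summed FPKM of the genes of the set in each family (vertical axis) held by each of these genes in every library, for the 2 profilins, the 5 formins and the 3 Ena/VASP genes. *Daam1* holds 47.2% and 53.8% of the 5 formins in the controls and 17.7% to 20.8% in the libraries labelled *Pfn1*-KO, where *Diaph1* holds 36.5% to 38.9%, and *Evl* is listed at 0 in both controls.

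The levels were ordered differently in the groups. By mean FPKM the order in the controls was *Pfn1* (12.7 ± 1.33 SD), *Pfn2* (10.6 ± 4.14), *Daam1* (9.48 ± 0.827), *Fmnl2* (6.19 ± 1.30), *Vasp* (6.18 ± 2.48), *Enah* (3.04 ± 1.59), *Diaph1* (1.82 ± 0.522), *Diaph3* (1.64 and listed at 0), *Diaph2* (0.623 ± 0.427) and *Evl* (listed at 0). In the libraries labelled *Pfn1*-KO it was *Pfn1* (28.9 ± 12.4), *Diaph1* (24.2 ± 1.89), *Fmnl2* (17.2 ± 1.54), *Pfn2* (14.9 ± 5.002), *Vasp* (13.9 ± 6.13), *Daam1* (12.4 ± 1.80), *Diaph2* (7.95 ± 1.57), *Enah* (7.58 ± 3.68), *Evl* (6.47 ± 2.88) and *Diaph3* (2.00 ± 0.611). Neighbours whose means differed by more than the larger of their SDs were *Daam1* and *Fmnl2*, *Vasp* and *Enah*, and *Diaph2* and *Evl* (the latter listed at 0) in the controls, and *Diaph1* and *Fmnl2*, *Daam1* and *Diaph2*, and *Evl* and *Diaph3* in the libraries labelled *Pfn1*-KO. The other neighbours did not differ beyond that spread. *Pfn1*-KO N3 had the lowest value of its group for *Pfn1*, *Pfn2*, *Diaph1*, *Diaph2*, *Enah*, *Vasp* and *Evl* and the highest for *Fmnl2*. The protein-coding genes whose profile over the 5 libraries was most like that of *Pfn1* were *Aoc2*, *Ugt1a6b* and *Shld1*, with a root mean square difference of centred log2(FPKM + 1) values of 0.0788, 0.0822 and 0.0822, and all 3 of them were listed at 0 in both controls.

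The other genes of the pathway were read as lists against the same background. Of 12 further profilins and formins, 7 passed the filter, and limma called 5 higher and none lower as deposited. Of all genes tested, 70.1% were called higher and 2.13% lower, so this count lay near the background. The median log2 fold change of the list was 2.09, against 1.75 for all genes tested. *Fmn1*, a formin of cell junctions, had 0.0157 and 0.0654 FPKM in control N1 and N3, against 9.01, 5.01 and 18.6 FPKM in *Pfn1*-KO N2, N3 and N4 (log2 fold change 3.34, adjusted p = 0.00291 from limma). *Daam2*, the paralog of *Daam1*, went from 2.74 and 0.870 to 10.4, 14.3 and 7.14 FPKM (2.09, adjusted p = 0.0109 from limma). Each library labelled *Pfn1*-KO exceeded both controls in *Daam2* as deposited, while it was at -0.10 after quantile normalization. *Fmnl1* (2.49), *Fmnl3* (1.86, but -0.26 after quantile normalization) and *Fhod1* (2.16, listed at 0 in both controls) were also called, and *Fhod3*, the most abundant of the list, was not (1.22, adjusted p = 0.0660 from limma). Under median-ratio scaling 2 of the 7 were called higher, against 46.9% of all genes tested, and 2 had negative values. After quantile normalization 4 had negative values and none was called, against 6.99% of all genes tested called higher and 12.3% lower.

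Of 10 partners of the EVH1 domain and adaptors of Ena/VASP proteins, limma called 8 higher and none lower as deposited, against 70.1% and 2.13% of all genes tested. Their median log2 fold change was 2.50, against 1.75 for all genes tested. *Vcl*, which encodes the focal adhesion protein vinculin, had 9.89, 5.35 and 12.8 FPKM in *Pfn1*-KO N2, N3 and N4, and both controls listed it at 0. *Lpp*, a zyxin-like protein of adhesions, went from 0.905 and 2.47 to 31.9, 11.6 and 60.6 FPKM (3.52, adjusted p = 0.00692 from limma). *Abi1* (4.15), *Tes* (3.21) and *Palld* (1.33, negative under median-ratio scaling and quantile normalization) were also called. *Fyb*, an adaptor of blood cells, had 8.27 and 5.79 FPKM in control N1 and N3, against 2.95, 0.388 and 11.5 FPKM in *Pfn1*-KO N2, N3 and N4, and did not pass the test as deposited (-0.96, adjusted p = 0.347 from limma). *Apbb1ip*, a blood cell adaptor too, was the other gene of the list that did not (0.55). These 2 are named because they are the exceptions, chosen after their values were seen. *Fyb* was called lower under median-ratio scaling (-2.47, adjusted p = 0.0448 from limma), where 5 of the 10 were called higher, against 46.9% of all genes tested. After quantile normalization the median of the list was 0.39, *Abi1* was called higher (2.05, adjusted p = 0.0225 from limma) and *Fyb* lower (-2.56, adjusted p = 0.0486), and the other 8 were not called. Of all genes tested, 6.99% were called higher and 12.3% lower under that scaling.

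Markers of podocytes and of other kidney cells are given beside these values, to be read against the 70.1% of all genes tested that limma called higher as deposited. The summed FPKM of 12 podocyte markers was 66.4 and 121 in the controls and 384, 631 and 188 in *Pfn1*-KO N2, N3 and N4. *Cdkn1c* made 12.4 and 93.0 of the sums in control N1 and N3, and 32.6, 144 and 9.57 in *Pfn1*-KO N2, N3 and N4. Limma called 9 of the 12 higher. Among the defining podocyte genes *Wt1* was listed at 0 in control N1 and *Tcf21* in both. The sum of 10 proximal tubule markers was 365 and 149 in the controls and 2186 to 5380 in the libraries labelled *Pfn1*-KO, with 10 of 10 called higher. *Kap* alone made 332 and 123 of the sums in control N1 and N3, and 2402, 3144 and 1190 in *Pfn1*-KO N2, N3 and N4. Endothelial markers (8 of 10 called higher) summed to 12.5 and 9.28 against 95.7 to 137. Mesangial and smooth muscle markers (5 of 7 tested called higher) summed to 2.38 and 37.1 against 59.3 to 84.2. *Gata3* made 2.38 and 25.1 of the latter sums in control N1 and N3, and 4.48 to 7.95 in the libraries labelled *Pfn1*-KO. Immune markers ran otherwise: they summed to 538 in control N1, of which *Lyz2* made 458, and to 4.13 in control N3, against 159, 17.0 and 243 in *Pfn1*-KO N2, N3 and N4, where 1 of 7 tested was called higher. After median-ratio scaling 3 of 12 podocyte, 8 of 10 tubule, 5 of 10 endothelial, 3 of 7 mesangial and 0 of 7 immune markers were called higher, against 46.9% of all genes tested. After quantile normalization these counts were 1, 6, 4, 1 and 0 in the same order, against 6.99%. The part of these cell types in the levels of the 10 genes was not tested.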

How the data were processed

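RNA-seq of podocyte TRAP samples was analysed from 1 table of 5 libraries, 2 control and 3 *Pfn1*-KO. According to the processing notes and the methods, the authors used fastp 0.20 for trimming, STAR 2.7.9 for alignment to GRCm38.p6 and featureCounts 2.0.0 for counting, required 6 or more reads in 20% or more of the samples, and deposited FPKM. TPM is named as the normalization in the methods, but the columns do not sum to the same total, as TPM would. Of 21019 genes with values, 20985 matched GENCODE vM21, which gave names, lengths, places and transcript sequences. Read numbers were recovered by multiplying FPKM by length and library size, which came out whole to within 0.02 for 20414 genes.

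Groups were compared on log2(FPKM + 1) by limma 3.58.1 (R 4.3.3), two-sided and with a mean-variance trend, over the 14631 genes that reached 1 FPKM in 2 or more libraries, with Benjamini-Hochberg adjustment over all of them and a threshold of 0.05. Fold changes on this scale understate those of low genes. Shares within a library were compared by two-sided exact permutation tests. Nothing shows that libraries came from separate preparations beyond the pooled mice, so p-values measure the spread between these libraries, which may be technical. Alternatives were other filters, pseudocounts of 0.1 and 5, sample weights, 4 other scalings, limma-voom on recovered reads, and leaving out each library. The steps were tested on simulated data in which few genes differed between the groups and all libraries shared a common scale. The libraries here differ from that setting, so those tests do not show how the steps behave on them.

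All 10 genes are named, as are up to 4 genes of each pathway list with the largest change among those called and up to 2 of the most abundant. One pathway list and some sequences are not reported here. The genes and lists were chosen with earlier results of these data known. Python 3.11.15 with pandas 2.3.3, scipy 1.17.1, Biopython 1.88 and matplotlib 3.10.9 was used.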

Additional observations from a re-analysis of the deposited data

How the results depend on the processing

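No paired analysis was possible because the table's columns carry none of the labels' replicate numbers and the groups share only 1 number in the header. The number of the 10 genes called higher was 4 as deposited, against 70.1% of all genes tested. It was 7 with sample weights, against 83.1%, and 0 after quantile normalization, against 6.99%. With a *Pfn1*-KO library left out it was 3 (without N2, against 44.1%), 3 (without N4, against 47.4%) and 7 (without N3, against 73.1%). With a control left out, the lone control is assumed to vary like the other group. The number called lower was 1 (*Daam1*) after median-ratio scaling, against 6.19% of all genes tested, and 0 otherwise. Over all genes tested, 10251 were called higher as deposited, 2440 among genes above 0 in every library, 1023 after quantile normalization and 6023 by limma-voom, and 6446 (without *Pfn1*-KO N2) to 10698 (without *Pfn1*-KO N3) with a library left out, with 6938 without *Pfn1*-KO N4. Called lower were 312 as deposited, 905 after median-ratio scaling, 1806 after quantile normalization, 98 as TPM and 620 after rescaling to nuclear protein-coding genes, and 136 (without *Pfn1*-KO N2) to 475 (without control N1) with a library left out, with 155 without *Pfn1*-KO N4.

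The log2 fold change reversed sign after median-ratio scaling for *Pfn1* (-0.70), *Pfn2* (-1.24), *Daam1* (-1.33), *Fmnl2* (-0.32), *Enah* (-0.48) and *Vasp* (-0.66). After quantile normalization it reversed for *Pfn1* (-0.36), *Pfn2* (-1.19), *Diaph3* (-0.85), *Daam1* (-1.41), *Fmnl2* (-0.46), *Enah* (-1.05) and *Vasp* (-0.87). It reversed for *Pfn2* (-0.54 and -0.44) and *Daam1* (-0.64 and -0.65) after rescaling to nuclear protein-coding genes and in limma-voom. The cause was not tested. Of 98 values of the 10 genes under other settings, 72 kept direction and side of the threshold, 6 lost a call, 3 gained one and 17 reversed. Of 50 values with a library left out, 43 kept both, 3 lost a call, 4 gained one and none reversed. The Ena/VASP share of the 10 genes, 1.95 points higher in the libraries labelled *Pfn1*-KO by FPKM, was -2.07 points by reads, and ran from -0.39 (without *Pfn1*-KO N4) to 5.45 points (without *Pfn1*-KO N3) with a library left out.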
